A study of Mus musculus with 2 samples.

Results

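The meiosis genes described here are 39 protein-coding genes named by symbol, all on autosomes, that act in the pairing, recombination and segregation of chromosomes in germ cells or in the entry of germ cells into that program. All 39 were found among 21631 protein-coding genes of the autosomes and the X, and 38 of them had a measured promoter. The promoter reaches 500 bp to both sides of the RefSeq start, which was known for 34 members, or of the gene end with more CpGs for Spo11, Meiob, Majin, Terb2 and Ythdc2. Where a gene had several starts, the one with more CpGs was used. DNA methylation was read by whole-genome bisulfite sequencing, in which unmethylated cytosine is converted and methylated cytosine is not. The cells were wild-type C57Bl6/J epiblast of genotype XX at embryonic day 6.5, dissected by hand from embryos of natural matings that were not cultured and were sexed by PCR on extra-embryonic tissue. The labels list 2 samples of this 1 group without the number of embryos in each, and their counts stand in a single table without a column per sample. No value therefore has a replicate error, and no p-value was computed. Each range in parentheses is the exact 95% interval of Clopper and Pearson and covers counting error only. They treat every read count as independent, although a read can span several CpGs.

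Meiosis begins in the fetal ovary and in the testis after birth, and the proteins made for it hold sister chromatids together, cut and repair DNA, and zip homologous chromosomes along their length. Most of these genes are silent outside the germline. In mouse, many germline promoters rich in CpGs gain methylation around implantation, and in embryonic stem cells a group of them is bound by a Polycomb complex that contains MAX, MGA and E2F6. The epiblast at this stage holds the precursors of both the body and the germline.

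The table held 137430444 read counts on the autosomes and the X, the median CpG had 6 reads, and 66.3% of these counts were methylated. Member windows held a median of 468 read counts (lowest 73, highest 1050), and in 34 of the 38 every CpG was read. The median interval was 8.07 percentage points wide. The promoter of Elf5, known in mouse to be methylated in the epiblast and unmethylated in trophoblast, was at 57.5% (50.6% to 64.2%). Those of the pluripotency genes Pou5f1 and Nanog were at 17.99% and 30.4%. A level between 0% and 100% can come from a share of cells, of alleles or of embryos, and in a pooled table these cannot be told apart.

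The letters below are the 300 bases from 250 before to 50 after the start of 7 members, from RefSeq on build GRCm38.p6, written 5′ to 3′ along the gene. They were chosen to show the range from an almost fully methylated promoter to an almost unmethylated one. Capitals mark CpGs at which at least 50% of 5 or more reads were methylated. All 279429 CpGs in the RefSeq sequences of 17274 genes were found at the same positions in the deposited table. In order, the stretches lie at chr6:34920698-34920997, plus strand, chr3:102936051-102936350, minus strand, chr3:95559427-95559726, plus strand, chr10:88459337-88459636, plus strand, chr15:79605060-79605359, minus strand, chr17:15564305-15564604, minus strand and chr1:55362679-55362978, minus strand.
Stra8: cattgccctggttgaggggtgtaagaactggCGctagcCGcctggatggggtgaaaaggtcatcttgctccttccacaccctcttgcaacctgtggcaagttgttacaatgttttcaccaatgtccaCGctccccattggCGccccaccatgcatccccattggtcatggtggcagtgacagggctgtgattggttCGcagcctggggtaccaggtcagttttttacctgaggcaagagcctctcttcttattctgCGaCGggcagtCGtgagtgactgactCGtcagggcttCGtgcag
Sycp1: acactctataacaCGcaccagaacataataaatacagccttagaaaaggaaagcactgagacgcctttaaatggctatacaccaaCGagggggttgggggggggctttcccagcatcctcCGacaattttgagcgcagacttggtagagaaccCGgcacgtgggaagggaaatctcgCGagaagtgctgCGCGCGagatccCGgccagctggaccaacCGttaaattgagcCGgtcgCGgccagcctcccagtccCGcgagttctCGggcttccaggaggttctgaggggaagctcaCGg
Hormad1: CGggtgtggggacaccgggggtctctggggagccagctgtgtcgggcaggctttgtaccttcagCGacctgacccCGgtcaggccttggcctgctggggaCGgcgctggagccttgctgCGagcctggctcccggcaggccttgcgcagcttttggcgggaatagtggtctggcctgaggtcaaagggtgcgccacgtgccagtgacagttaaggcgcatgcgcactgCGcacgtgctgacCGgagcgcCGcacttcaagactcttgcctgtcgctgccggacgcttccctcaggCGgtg
Sycp3: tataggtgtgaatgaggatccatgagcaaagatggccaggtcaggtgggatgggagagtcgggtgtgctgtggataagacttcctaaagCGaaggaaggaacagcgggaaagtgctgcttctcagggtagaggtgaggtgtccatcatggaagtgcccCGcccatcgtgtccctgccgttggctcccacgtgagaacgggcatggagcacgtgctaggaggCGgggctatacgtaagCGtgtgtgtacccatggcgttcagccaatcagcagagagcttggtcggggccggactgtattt
Dmc1: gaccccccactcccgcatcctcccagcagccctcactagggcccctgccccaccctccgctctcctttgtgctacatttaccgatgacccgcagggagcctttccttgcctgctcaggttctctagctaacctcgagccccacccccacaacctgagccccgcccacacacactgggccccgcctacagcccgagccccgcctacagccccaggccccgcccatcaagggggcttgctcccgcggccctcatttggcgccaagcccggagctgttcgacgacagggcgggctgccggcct
Prdm9: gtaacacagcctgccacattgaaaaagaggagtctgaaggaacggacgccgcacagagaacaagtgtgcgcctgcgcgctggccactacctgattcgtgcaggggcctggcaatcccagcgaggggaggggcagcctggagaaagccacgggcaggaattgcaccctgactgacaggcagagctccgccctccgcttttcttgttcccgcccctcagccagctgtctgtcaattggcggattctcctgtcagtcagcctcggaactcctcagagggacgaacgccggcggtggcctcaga
Boll: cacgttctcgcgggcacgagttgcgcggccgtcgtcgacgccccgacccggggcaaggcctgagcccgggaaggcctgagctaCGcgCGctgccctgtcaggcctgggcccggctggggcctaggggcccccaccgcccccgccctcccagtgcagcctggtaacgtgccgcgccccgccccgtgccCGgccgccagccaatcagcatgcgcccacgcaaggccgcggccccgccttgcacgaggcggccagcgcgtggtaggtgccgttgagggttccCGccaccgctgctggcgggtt
In Stra8 all 10 CpGs of this stretch were in capitals, and in Sycp1 15 of 21 were. In Hormad1 9 of the 19 CpGs with enough reads were capitals, and in Sycp3 4 of 14 were. Dmc1 and Prdm9 had none among 16 and 17 such CpGs, and Boll had 4 of 38.

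Meiosis promoters were more methylated than most promoters, and they were split, with some at or below the median of all promoters and others above 60%. The median over the 38 measured members was 31.0% (lowest 4.48%, highest 87.2%), beside 8.41% over all 19162 measured protein-coding promoters. By their intervals, 13 members lay under 20% and are called low, 13 lay within 20% to 60% and are called intermediate, and 6 lay over 60% and are called high. The intervals of the other 6 crossed a limit, and these are called unresolved. Among all measured promoters 64.7% were low, 4.72% intermediate, 15% high and 15.6% unresolved. The interval lay over 20% in 22 members (57.9%), compared with 30.1% of all promoters. When only 1 CpG per 100 bp was kept, 6 members were low, and with 250 bp on either side of the start 2 were high.

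**Figure D1:**
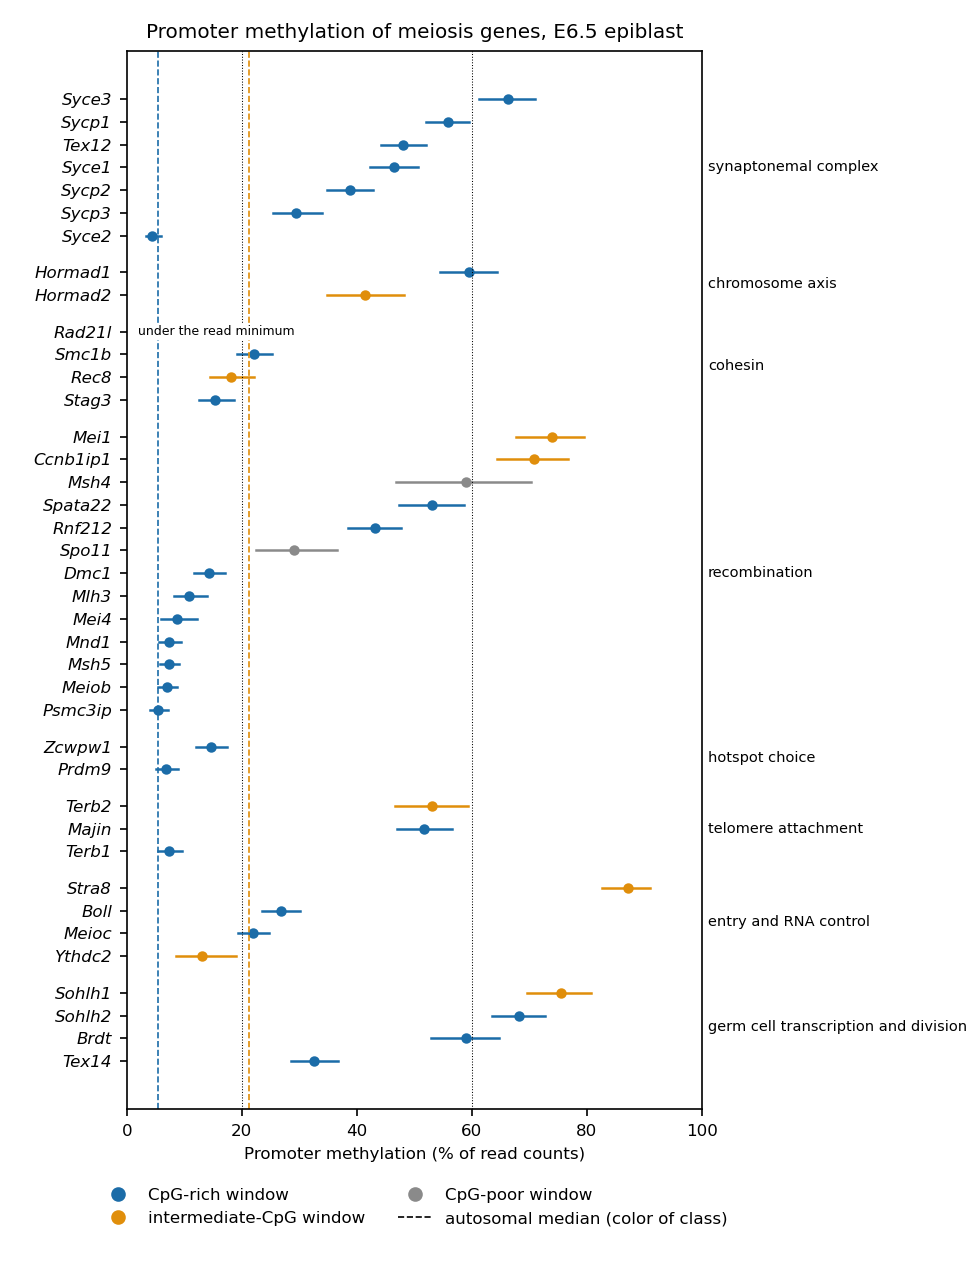
Promoter methylation in percent of read counts for each meiosis gene, grouped by role, with points for the level and bars for the exact 95% interval. Dashed lines give the autosomal medians of CpG-rich (5.38%) and intermediate-CpG (21.3%) promoters and dotted lines the limits of 20% and 60%, and the synaptonemal complex genes other than Syce2 sit right of 20%.

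CpG number was set beside the level, because CpG-dense promoters are usually unmethylated. CpG-rich windows hold at least 40 CpGs, CpG-poor ones under 20 and intermediate-CpG ones the rest. In the 28 CpG-rich members the median was 24.4%, beside 5.38% (quartiles 3.77% and 7.59%) over 11354 autosomal CpG-rich promoters. Of these members 12 were low, 10 intermediate, 2 high and 4 unresolved, and the interval lay over 20% in 14 (50%). The shares of autosomal CpG-rich promoters were 97.3% low, 0.81% intermediate, 0.15% high, 1.77% unresolved and 1.05% over 20%. For the CpG-rich members this median depends on how the class is defined, and was 14.6% with a limit of 50 CpGs (17 members) and 14.8% with 1000 bp on either side (13 members), where the autosomal medians were 5.02% and 6.71%. In finer steps, the 11 members with 40 to 49 CpGs had a median of 51.7%, beside 8.94% over autosomal promoters of that CpG number. With 50 to 59 CpGs the medians were 14.6% in 7 members and 6.98% over the autosomes, and with 60 to 79 CpGs they were 14.3% in 7 members and 5.70%. The 3 members with at least 80 CpGs, Syce2, Meioc and Boll, had a median of 21.9%, beside 3.86%.

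Among the 8 intermediate-CpG members the median was 61.9%, beside 21.3% over 2714 autosomal promoters of that class. The interval lay over 20% in 6 of the 8, compared with 43.8% of the class, and over 60% in 4, compared with 20.4%. Of the others, 2 were intermediate, 1 was low and 1 unresolved, where the class had 16.2%, 37.7% and 25.6%. Spo11 and Msh4 were measured in CpG-poor windows, where the autosomal median was 72.6%. Spo11 was intermediate, as were 6.86% of autosomal CpG-poor promoters, and Msh4 was unresolved, as were 41.6%. In that class 0.97% were low, 50.6% high and 95% over 20%. Across the 38 members, level and CpG number had a Spearman correlation of -0.57, given as a description over windows of the same table.

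**Figure D2:**
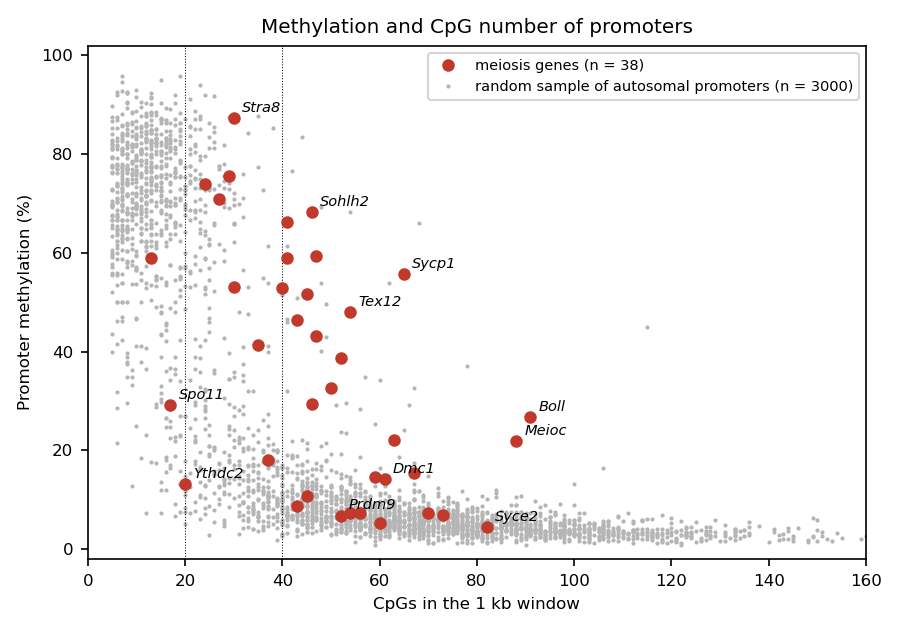
Promoter methylation in percent against the number of CpGs in the window, for the 38 measured meiosis genes (red) and a random sample of 3000 autosomal promoters (gray), with dotted lines at 20 and 40 CpGs. Boll (26.7%) and Meioc (21.9%) lie above the gray points of their CpG number, and Prdm9 (6.80%) and Syce2 (4.48%) lie among them.

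The synaptonemal complex is the protein zipper between paired homologs, and 6 of its 7 genes had an interval over 20%, where 1.05% of autosomal CpG-rich promoters and 30.1% of all promoters did. All 7 windows were CpG-rich. The median of the 7 was 46.5%. Sycp1, whose product forms the transverse filaments, was at 55.8% (52.0% to 59.4%, 397 of 712 read counts, chromosome 3, 102935600 to 102936600). Its level lay above that of 99.8% of autosomal CpG-rich promoters. The axial element genes Sycp2 and Sycp3 were lower, at 38.7% (34.8% to 42.8%) and 29.5% (25.4% to 33.9%). The central element genes covered a wide range. Syce3 was at 66.2% (61.2% to 71.0%), Tex12 at 48.1% (44.1% to 52.0%) and Syce1 at 46.5% (42.3% to 50.7%). Syce2, which forms a complex with Tex12 in the central element, was at 4.48% (3.31% to 5.91%, 47 of 1050 read counts, chromosome 8, 84871758 to 84872758). The intervals of Syce2 and its partner Tex12 do not overlap. Syce2 had the lowest level of the 38 members in these windows, but its interval overlaps that of Psmc3ip, and Psmc3ip, Ythdc2 or Boll was lowest under 5 of the 10 alternatives. Hormad1 and Hormad2 encode proteins of the chromosome axis that are removed as homologs synapse, and they were at 59.5% (54.5% to 64.3%) and 41.4% (34.8% to 48.2%). The interval of Hormad1 crosses 60%, so it was unresolved.

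The meiotic cohesin genes, whose products replace mitotic subunits of the ring around sister chromatids, had levels that depend on the width of the window. Stag3 was low at 15.3% (12.5% to 18.6%, chromosome 5, 138280009 to 138281009). Smc1b at 22.1% (19.1% to 25.3%) and the kleisin gene Rec8 at 18.1% (14.5% to 22.2%) were unresolved, because their intervals cross 20%. With 250 bp on either side they were at 7.76% for Stag3, 12.4% for Smc1b and 7.0% for Rec8, and at the gene end with more CpGs Rec8 was at 10.2%. The other meiotic kleisin gene, Rad21l, was not measured at its RefSeq start, where the window had 5 CpGs and 4 read counts. Its gene end with more CpGs, the outer end on its strand, was at 24.6% (20.1% to 29.6%) over 42 CpGs.

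Recombination genes had a median of 14.3%, and 7 of 13 were low, 3 intermediate, 2 high and 1 unresolved. Among all promoters 64.7% were low, 4.72% intermediate and 15% high, so the low and high counts of this group are near those shares. Spo11, which makes the programmed breaks, was at 29.1% (22.5% to 36.5%) in a window of 17 CpGs, under the level of most CpG-poor promoters. Among genes needed for those breaks, Mei4 was at 8.73% (6.01% to 12.2%) and Mei1 at 73.9% (67.7% to 79.5%). The window of Mei1 held 24 CpGs, and its outer gene end, with 53 CpGs, was at 23.3% (20.2% to 26.6%), so its place among the members depends on the start that is used. Strand exchange genes were low in these windows. The recombinase gene Dmc1 was at 14.3% (11.8% to 17.1%, chromosome 15, 79604609 to 79605609) and at 22.6% with 1000 bp on either side, and the genes of its cofactors Psmc3ip and Mnd1 were at 5.41% (4.01% to 7.10%) and 7.39% (5.62% to 9.51%). Meiob and Spata22 encode partners in one complex on single-stranded DNA, and their promoters differed, at 6.97% (5.41% to 8.82%) and 53.0% (47.3% to 58.6%). Msh4 and Msh5, which act as a pair on recombination intermediates, differed too, at 58.9% (46.8% to 70.3%) and 7.29% (5.78% to 9.04%). The Msh4 window had 13 CpGs and 73 read counts, and its outer gene end, with 47 CpGs, was at 46.4% (42.4% to 50.5%). Mlh3, which cuts crossover intermediates, was at 10.8% (8.17% to 14.0%), and at 26.9% with 1 CpG per 100 bp. Rnf212 and Ccnb1ip1, ligase-like genes that mark sites of crossing over, were at 43.1% (38.5% to 47.7%) and 70.9% (64.4% to 76.7%).

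Both genes of hotspot choice were low, as were 64.7% of all promoters and 97.3% of autosomal CpG-rich ones. Prdm9, the histone methyltransferase that sets recombination hotspots, was at 6.80% (5.09% to 8.87%, chromosome 17, 15563854 to 15564854). Its other RefSeq start, with 21 CpGs, was at 21.8% (15.98% to 28.6%). Zcwpw1, a reader of the marks that Prdm9 writes, was at 14.6% (12.1% to 17.4%) and at 7.85% (5.82% to 10.3%) at its other start. Of the telomere attachment genes, which tie chromosome ends to the nuclear envelope, Majin was at 51.7% (46.9% to 56.5%), Terb2 at 53.0% (46.6% to 59.4%) and Terb1 at 7.30% (5.41% to 9.59%). The products of these 3 genes form a single complex, and only the Terb1 interval lies under 20%.

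Stra8, which drives entry into meiosis in response to retinoic acid, had the highest level of the 38 members, at 87.2% (82.6% to 91.0%, 232 of 266 read counts, chromosome 6, 34920448 to 34921448). With 1000 bp on either side it was at 72.2%, below Sohlh1 at 77.2%, Sohlh2 at 75.7% and Mei1 at 75.5%. In the main window it lay above 98.0% of autosomal intermediate-CpG promoters. Meioc, whose product binds the RNA helicase encoded by Ythdc2, was at 21.9% (19.3% to 24.7%) and was unresolved, and Ythdc2 was low at 13.1% (8.52% to 19.1%) in a window of 20 CpGs. Ythdc2 was at 42.1% when only 1 CpG per 100 bp was kept and at 7.05% with 1000 bp on either side. Boll, a relative of the RNA-binding gene Dazl, was at 26.7% (23.6% to 30.0%, chromosome 1, 55362228 to 55363228). Its farther upstream start had 82 CpGs and was at 5.81% (4.59% to 7.24%), so the starts of Boll differ in level, and with 1000 bp on either side Boll was at 14.8%. Germ cell genes of transcription and division all had intervals over 20%, where 30.1% of all promoters did. In autosomal CpG-rich promoters this share was 1.05%, and in intermediate-CpG ones 43.8%. The transcription factor genes Sohlh1 and Sohlh2 were high, at 75.5% (69.6% to 80.8%) and 68.2% (63.5% to 72.7%). Brdt, the bromodomain gene of the testis, was at 58.9% (52.9% to 64.7%), and Tex14, needed for bridges between germ cells, was at 32.6% (28.6% to 36.8%).

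Methylation was also followed along the DNA around each start. In the 28 CpG-rich members the 200 bp around the start had a median of 18.3%. In the 26 with a known strand, the side from there to 500 bp upstream was at 39.7% and the same stretch downstream at 37.3%. Over autosomal CpG-rich promoters with a known strand the medians were 4.11% at the start, 7.26% upstream and 4.81% downstream. The start was lower than both sides in 18 of 26 CpG-rich members with all 3 values (69.2%), compared with 48.2% of 9082 autosomal promoters. From 1000 to 2000 bp away the members were at 73.2% upstream and 72.6% downstream, beside 68.0% and 63.8% over the autosomes. Gene bodies, without 1000 bp at each end, had a median of 71.2% in CpG-rich members and 78.3% over autosomal genes with CpG-rich promoters. Between these stretches, in bins of 100 bp, the medians were 69.9% in CpG-rich members and 13.3% over the autosomes 550 bp upstream, and 58.3% and 9.18% at 650 bp downstream. The members and the other promoters thus lay farther apart there than at the start.

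**Figure D3:**
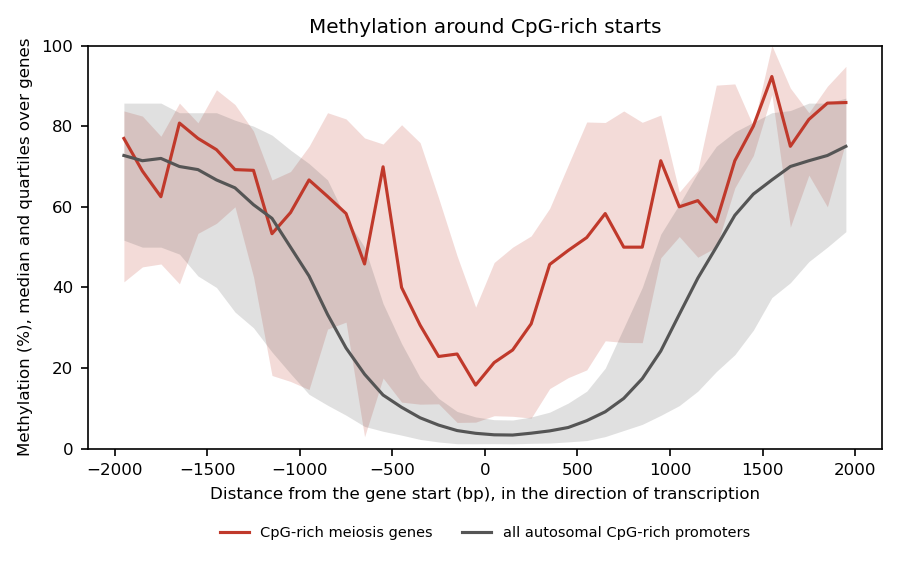
Methylation in percent in bins of 100 bp, from 2000 bp before to 2000 bp after the start. CpG-rich meiosis genes are in red and autosomal CpG-rich promoters in gray, both with a known strand. Lines give the median over genes and bands the quartiles. The red line is lowest just before the start, at 15.8%, where the gray line is at 3.85%, and both lines are higher 2000 bp away.

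Many single CpGs of the members had a level between 20% and 80%. The median CpG of the table had 6 reads, and counting error alone can place a CpG in this range. Of 1461 CpGs with at least 5 reads in CpG-rich members, 53.6% were under 20%, 41.3% between 20% and 80% and 5.07% over 80%, whereas over autosomal CpG-rich promoters the shares were 92.8%, 7.06% and 0.168%. In the 13 members called intermediate, 410 of 558 CpGs lay between 20% and 80% and 37 lay over 80%. In Sycp1 60 of 65 CpGs were in the middle range, and in Majin 37 of 40. In the 6 high members 70 of 173 CpGs were over 80%, of which 22 were in Stra8. The DNA strands of the member windows differed by a median of 4.78 percentage points and by 20.6 at most. The Spearman correlation between them was 0.95 (38 windows of 1 table). Syce1 was at 35.9% on the plus strand and 54.1% on the minus strand, and Smc1b at 15.6% and 28.1%.

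Some windows changed level within a short distance. Tex14 lies head to head with Rad51c, a DNA repair gene active in dividing cells, with 111 bp between the starts. The window of Rad51c shares most of that of Tex14, is not a separate measurement and was at 27.4% (24.0% to 30.9%). Upstream of the Tex14 start, toward Rad51c, the level from beyond 100 bp to 500 bp was 7.18% (3.88% to 11.97%), and downstream, inside Tex14, it was 71.4% (63.8% to 78.3%). In steps of 100 bp Tex14 was at 13.5% just before the start, 46.3% just after it and 77.1% in the bin centered 250 bp into the gene. Stag3 showed the same order next to the head-to-head gene Gpc2, a proteoglycan gene at 5.15%, with 5.97% (3.45% to 9.51%) upstream and 54.6% (44.2% to 64.8%) downstream. Smc1b, which shares most of its window with Ribc2, at 20.8%, was at 15.3% (11.4% to 19.9%) upstream and 37.3% (31.4% to 43.5%) downstream. Terb2, at 53.0%, shares most of its window with Patl2, at 53.7%, so these are not separate measurements. Mlh3 and Terb1 had the other order, with 59.2% (44.2% to 73.0%) upstream and 6.06% (2.65% to 11.6%) downstream in Mlh3, and 44.9% (30.7% to 59.8%) upstream and 4.78% (2.99% to 7.22%) downstream in Terb1.

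**Figure D4:**
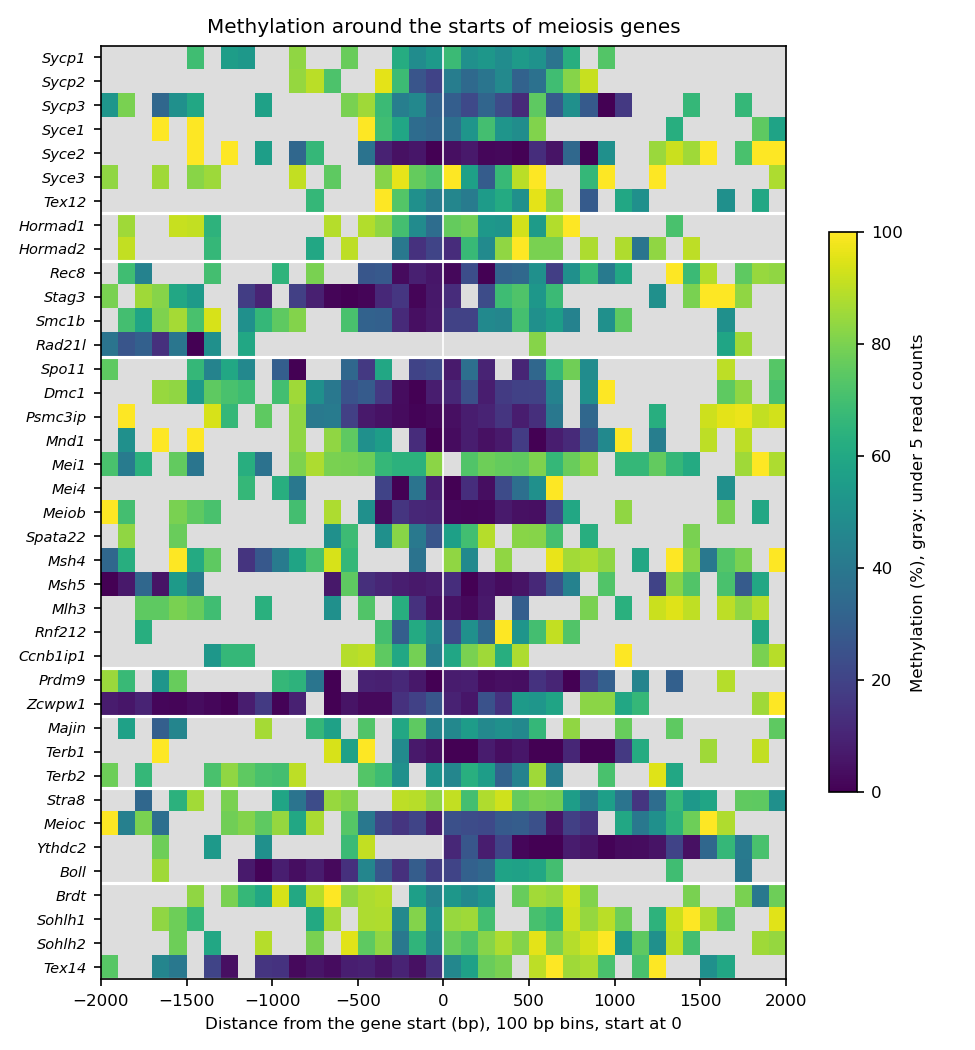
Methylation in percent in bins of 100 bp around the start of each of the 39 meiosis genes, with roles separated by white lines, gray where a bin had under 5 read counts, and direction of transcription to the right except for Spo11, Meiob, Majin, Terb2 and Ythdc2, which are in genome order. Tex14 turns from dark (7.18% upstream) to bright (71.4% downstream) at the start, and Stra8 is bright on both sides.

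The promoter sequences were searched on both strands for 4 motifs, and a match describes letters only. The E-box CACGTG, the motif of MAX and MGA, was in 9 of the 34 members with a sequence (26.5%), compared with 8.10% of 17274 promoters and 11.0% of CpG-rich ones. These members were Sycp1, Sycp3, Syce2, Tex12, Hormad1, Stag3, Rnf212, Brdt and Sohlh1. The E2F-type motif GCGGGAA was in 13 (38.2%), compared with 6.26% of all promoters and 9.79% of CpG-rich ones, and 6 members had both. TGACGTCA was in 0 of 34 members and 2.39% of promoters, and the fourth motif, the palindrome bound by ZBTB33, was in 2 members, Sycp1 and Smc1b, and in 0.741% of promoters. Measured members with CACGTG had a median level of 48.1% and those without it 24.4%, whereas with GCGGGAA it was 26.7% and without it 43.9%.

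The CpG inside the E-box was less methylated than the window around it, a comparison made after the values were seen. Of 11 E-box CpGs with at least 5 reads in 8 members, 11 were below the level of their own window, and together they were methylated in 15 of 116 read counts (12.9%). The searched bases lie near the start, where CpG-rich members were also lower than on either side. A comparison with the whole window therefore does not separate motif from position. In Sycp3, whose sequence above holds the E-box at 2 places in lower case letters, the E-box CpGs were methylated in 0 of 15 and 2 of 16 read counts. In Sycp1 the count was 1 of 10, in Brdt 1 of 8 and in Tex12 1 of 8. The highest were single E-box CpGs of Hormad1, at 2 of 6, and Sohlh1, at 2 of 7. Another E-box CpG of Sohlh1 had under 5 reads and was at 3 of 4. Among CpG-rich members with a window of at least 20%, E-box CpGs were at 12.4% (6.33% to 21.0%, 8 CpGs) and other CpGs of the 300 bases, outside ACGT, at 35.4% (33.7% to 37.1%). CpGs in ACGT outside the E-box were at 44.8% (34.1% to 55.9%, 7 CpGs) in these members. Other autosomal CpG-rich promoters with a window of at least 20% had the same order, at 20.2% (15.8% to 25.1%, 29 CpGs) in E-boxes, 31.4% at other CpGs and 33.2% in ACGT outside the E-box. Neither gene nor position was held fixed in these comparisons. Among the CpG-rich members the E-box CpGs lay in 6 promoters and the other CpGs in 15. The CpG of GCGGGAA was at 23.0% over 13 matches in members, 10 of them below their own window.

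Relatives of the members that are used in mitosis, repair or transcription outside the germline were compared, since they share ancestry and differ in use. The 10 relatives with CpG-rich windows were all low, as were 97.3% of autosomal CpG-rich promoters. Their median was 3.78% (lowest 2.03%, highest 8.92%). In 12 pairs with such a relative, covering 8 members, the member had the higher level in each, and its interval lay above that of the relative in 11. Brdt at 58.9% stood beside Brd2 at 3.82% and Brd3 at 3.17%. Smc1b at 22.1% stood beside the X-linked Smc1a at 8.92%. Stag3 at 15.3% stood beside Stag1 at 3.58% and the X-linked Stag2 at 4.39%. The mismatch repair genes Msh3 (3.74%) and Msh6 (2.03%) lay below both Msh4 (58.9%) and Msh5 (7.29%). Meiob at 6.97% stood beside Rpa1 at 3.12%, and Ythdc2 at 13.1% beside Ythdc1 at 6.47%. The interval of Mlh3 (10.8%) overlapped that of Pms2 (7.08%). The windows of these 8 members held 13 to 73 CpGs and those of the relatives 60 to 129, so CpG number moved with the comparison, and its part was not tested. Rad21, the mitotic counterpart of Rec8 and Rad21l, was at 87.5% in a gene end of 11 CpGs and 40 read counts. That end is not a known start and its window is not CpG-rich, so Rad21 is in none of the 12 pairs. Meiob and Ythdc2 were also read at a gene end and are in these pairs. With 1000 bp on either side Ythdc2 was at 7.05%.

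**Figure D5:**
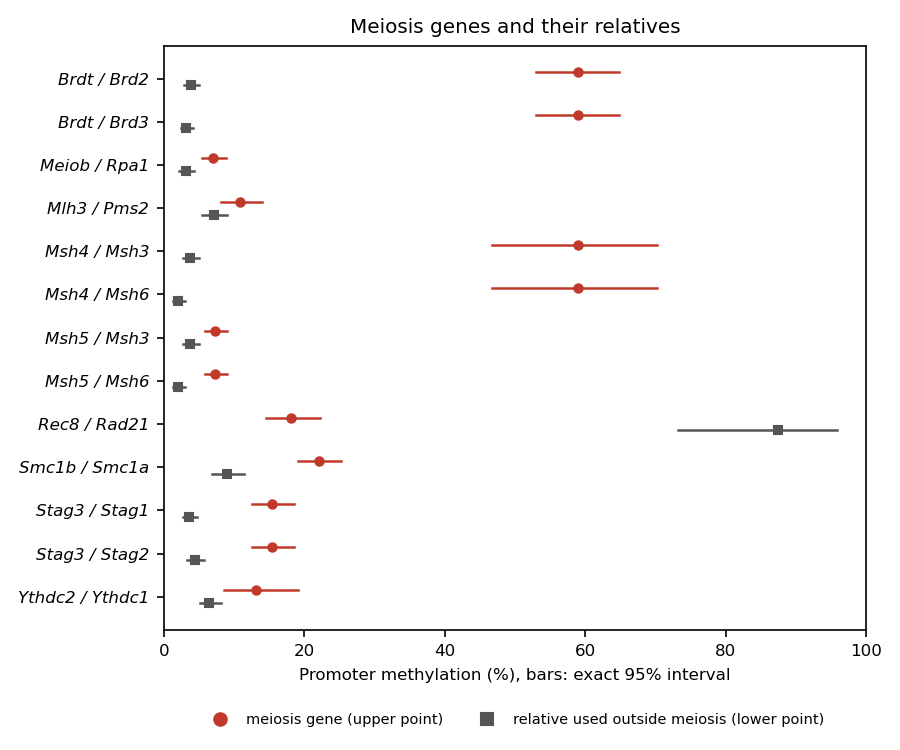
Promoter methylation in percent for each measured meiosis gene (red circle, upper) and a relative used outside meiosis (gray square, lower), with bars for the exact 95% interval. The red circle lies right of the gray square in every pair except Rec8 and Rad21, where Rad21 was read at a CpG-poor gene end.

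Another 20 genes of meiosis that are not members had a median of 23.4%. Of these, 10 were low, 4 intermediate and 3 high, beside 64.7%, 4.72% and 15% of all promoters, and 3 were unresolved. At the top were Meikin, which protects cohesion at the centromere in the first division, at 77.6%, and Shoc1, a crossover gene, at 73.3% in a window of 15 CpGs, both read at the gene end with more CpGs. The lowest were Mcmdc2, read at the gene end with more CpGs, at 3.03%, and Sun1, which links telomeres through the nuclear envelope and is also used outside the germline, at 4.35%. The 16 with CpG-rich windows had a median of 12.05%, and 6 of them (37.5%) had an interval over 20%, compared with 1.05% of autosomal CpG-rich promoters.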

How the data were processed

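The authors deposited counts of methylated and unmethylated reads for each strand of each CpG, in 1 table of 43816016 lines with no header and no column per sample, taken here as the pool of the group. Per the submitters' processing notes the build was mm10 and the tools included cutadapt 1.3, Bismark 0.12.5 and Bowtie2 2.1.0. How the samples were combined is not stated in the labels, nor whether duplicate reads were removed, and repeated reads would make the intervals too narrow. Strands were added, and sequences other than the autosomes and the X (0.189% of read counts) were left out. A level is the methylated count over the total count of a window. Taking the start with more CpGs where a gene had several was a choice beyond the planned design. A window needed 20 read counts and 5 CpGs with a read. Genes, starts and sequences came from RefSeq tables of GRCm38.p6, whose CpG positions match the table. All 73 entries of the gene lists matched 1 gene each, 5 of them through an older symbol. Bisulfite conversion was not measured here. In the mitochondrial genome, which was left out, 45.1% of 53056 read counts at CpGs were methylated, and the reason was not tested. Intervals and calls were tested on simulated independent counts (Python 3.11.15, scipy 1.17.1), which cannot show the effect of repeated reads or of reads that span several CpGs. The members, lists, roles and tests were chosen with earlier results of these data known. Every member is named, with each relative analysed and the 2 highest and 2 lowest of the other meiosis genes. The comparison of CpGs inside motifs and of windows with head-to-head partners was chosen after the values were seen. Alternatives changed the depth minimum, summary, strand, window, start and CpG classes. Some relatives of the members are not reported here.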

Additional observations from a re-analysis of the deposited data

How the results depend on the processing

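No paired analysis was possible because the table has no column per sample, and for the same reason no sample could be left out. A minimum of 50 read counts and the removal of the deepest CpGs moved none of the 7 summary values beyond the interval of the middle member or 1.5 times its count. The lowest member window held 73 read counts, so that minimum could remove no measured member and changed only the set of relatives. Keeping 1 CpG per 100 bp, the first with a read, lowers the weight of CpG-dense stretches. The median of all members was then 39.1%, that of CpG-rich members 34.0% (autosomal 6.67%), and 6 members were low. With 1000 bp on either side CpG-rich members were at 14.8% and relatives at 6.10%. With a limit of 50 CpGs the CpG-rich members were at 14.6%. At the gene end with more CpGs, intermediate-CpG members were at 38.6% (autosomal 22.8%) and relatives at 7.16%. With 250 bp on either side 2 members were high, and with plus strand reads alone 3 were. In each of these settings the CpG-rich member median stayed above the autosomal one. Of single members, 20 of 38 left their own interval with 1000 bp on either side, 18 of 38 with 1 CpG per 100 bp, 10 of 38 with 250 bp and 7 of 38 at the gene end with more CpGs. With minus strand reads alone 9 of 38 did, with plus strand reads alone 8 of 37, and as the mean over CpGs 4 of 38. Other single members that moved by over 1.5 times, with levels not given above, were Syce2, Terb1, Mei4, Mnd1, Prdm9, Psmc3ip and Zcwpw1. All but Zcwpw1 stayed under 20% in these windows. Zcwpw1 was at 6.41% at the gene end with more CpGs and at 20.7% with 1000 bp on either side. As the mean over its CpGs it was at 20.1%. Depth limits windows with few read counts, Msh4 and Rad21l most.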
